A study of Mus musculus with 28 samples.

Results

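The genes described here make cholesterol and fatty acids. The set was written by name: 17 enzymes of sterol synthesis, 5 regulators of sterol level and 12 enzymes of fatty acid synthesis. A gene counted as measured where the platform annotation paired a probe set with its symbol alone, and the brightest such probe set stood for it. This gave 32 of the 34 genes among 22180 measured: 16 sterol enzymes, 5 regulators and 11 fatty acid enzymes. Idi1 and Scd2 had only probe sets shared with another symbol and were not used. Of the 32 genes, 1 (Scap) had a second probe set.

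Whole lungs of newborn mice, collected on postnatal day 0, were measured on 1-colour arrays, with 1 animal for each of 28 arrays. The genotypes were Control, HRas-KO (no HRas), NRas-KO (no NRas) and DKO (neither). HRas and NRas are small GTPases that pass signals from growth factor receptors into the cell. In the untreated arm there were 3 Control, 3 HRas-KO, 3 NRas-KO and 5 DKO lungs, and in the arm exposed to N-acetyl cysteine (NAC) 4 Control, 3 HRas-KO, 3 NRas-KO and 4 DKO lungs. NAC, an antioxidant and precursor of glutathione, was given to the mothers at 0.5% throughout pregnancy. The knockouts are of the whole animal as far as the labels tell, and the labels used here do not state the strain, the alleles or the exact genotype of the Control animals. The series title states that the DKO mice die of respiratory distress.

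In cholesterol synthesis, acetyl-CoA is built into mevalonate, then into farnesyl diphosphate and squalene, and squalene is closed and trimmed to cholesterol. Fatty acid synthesis starts from the same acetyl-CoA and leads through malonyl-CoA to palmitate, which is then elongated and desaturated. When membrane sterol is low, SCAP carries the transcription factors SREBP1 and SREBP2 to the Golgi, where they are cut and released to switch on genes of both arms, while INSIG1 holds the complex back. In the late fetal lung, alveolar type 2 cells use these lipids for surfactant, the film that keeps alveoli open at the first breath.

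SREBP factors bind sterol regulatory elements beside NF-Y and Sp1 boxes. Promoters are shown for 4 genes, 2 from each arm, that were called in 2 or more comparisons below. They were chosen among genes that held a searched motif, so that these 4 hold boxes follows from the choice. They are RefSeq sequences of build GRCm38.p6, 5′ to 3′ on the strand of the gene, from position -180 to -1 before the annotated start. Capitals mark the sterol regulatory element TCACNCCAC and the NF-Y box CCAAT, searched on both strands, so that a box on the other strand reads ATTGG.
Hmgcs1 (chr13:119690171-119690350, plus strand): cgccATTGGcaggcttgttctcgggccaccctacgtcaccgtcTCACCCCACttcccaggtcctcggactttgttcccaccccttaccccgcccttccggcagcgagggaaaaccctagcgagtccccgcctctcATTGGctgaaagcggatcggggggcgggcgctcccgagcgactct
Hsd17b7 (chr1:169969206-169969385, minus strand): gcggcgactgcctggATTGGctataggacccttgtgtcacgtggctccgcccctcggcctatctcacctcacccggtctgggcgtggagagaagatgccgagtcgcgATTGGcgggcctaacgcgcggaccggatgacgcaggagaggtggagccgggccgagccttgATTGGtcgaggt
Fasn (chr11:120824548-120824727, minus strand): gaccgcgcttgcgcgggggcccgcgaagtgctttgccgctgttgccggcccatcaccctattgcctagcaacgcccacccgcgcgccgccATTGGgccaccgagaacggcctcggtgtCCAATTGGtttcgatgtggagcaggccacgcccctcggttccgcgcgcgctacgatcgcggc
Elovl5 (chr9:77917185-77917364, plus strand): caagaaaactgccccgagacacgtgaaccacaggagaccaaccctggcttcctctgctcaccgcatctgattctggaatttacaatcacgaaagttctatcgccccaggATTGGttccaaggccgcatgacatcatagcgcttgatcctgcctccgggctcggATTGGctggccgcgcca
The Hmgcs1 window held the one match to TCACNCCAC among the genes searched, with its first base at -137. The boxes of Fasn at -62 and -59 overlap by 2 bases on opposite strands.

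Windows of 300 bases, from 250 before the start to 50 after it, matched 27 of the 34 genes by symbol, all but Fdps, Fdft1, Sqle, Stard4, Scd1, Scd2 and Fads1. The sterol regulatory element was found in 1 of 35 windows of these 27 genes, against 1.24% of all 32851 windows in the RefSeq table. CCAAT was found for 14 of 14 sterol enzymes, 3 of 4 regulators and 6 of 9 fatty acid enzymes, or 24 of 35 windows, against 37.4% of all windows. The Sp1 box GGGCGG, also searched on both strands, was found in 26 of 35 windows against 35.7% of all. Some genes had several windows, and a match describes letters, not binding.

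All values are log2 values as the authors deposited them, and a difference of 1 on this scale is a doubling. Differences are given ± SE, group means ± SD, and a gene was called at a limma adjusted p (Benjamini-Hochberg over 22180 genes) under 0.05. Of the 32 genes, 16 were called in at least 1 of 14 comparisons: 7 sterol enzymes, all 5 regulators and 4 fatty acid enzymes. Of all 22180 genes 27.1% were called in at least 1. In whole lung, fewer cells of a type and less RNA per cell cannot be told apart.

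Several measures differed among the arrays beside the groups. The lung label was checked on markers: Sftpc, a surfactant protein of type 2 cells, read 12.99 or more on every array, and Ager, of type 1 cells, 11.48 or more. The targeted Nras read 7.40 to 7.80 on the NRas-KO and DKO arrays, except 8.08 on DKO+NAC replicate 4, and 8.07 to 8.47 on the others. Xist, the RNA of the inactive X chromosome, was either at most 4.60 or at least 9.92. It was high on 1 of 3 Control, 2 of 3 HRas-KO, 2 of 3 NRas-KO, 2 of 5 DKO, 2 of 4 Control+NAC, 0 of 3 HRas-KO+NAC, 1 of 3 NRas-KO+NAC and 4 of 4 DKO+NAC arrays. Skeletal muscle genes were raised above the 28-array mean by over 0.4 on 5 arrays, all untreated: Control replicate 3, NRas-KO replicate 2 and DKO replicates 1, 3 and 5. Epidermal genes were raised by 2.05 and 0.98 on NRas-KO replicates 2 and 3, and the next highest array (HRas-KO+NAC replicate 1) read 0.04. No alternative left out both of these NRas-KO arrays or took the epidermal mean as a covariate. Sample titles end in an animal code. No start of that code occurred in both arms (6 starts untreated, 4 with NAC), and those of the untreated DKO lungs occurred in no other group. The labels do not say what the start stands for, so NAC, and DKO without NAC, cannot be told apart from it.

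**Figure D1:**
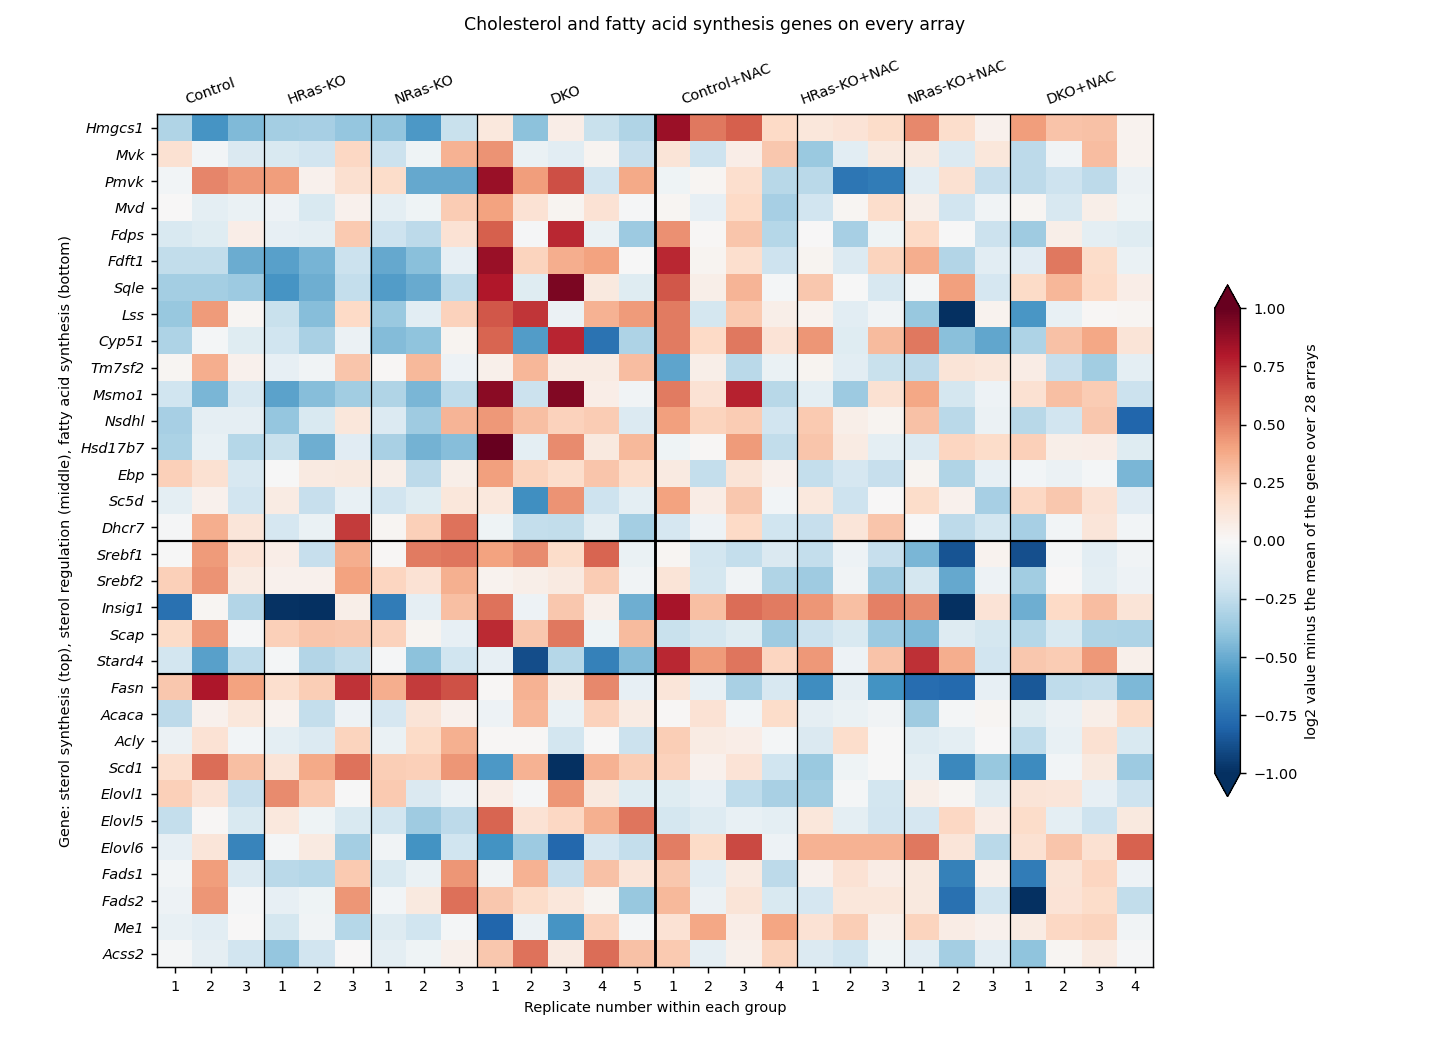
Each row is 1 of the 32 genes and each column 1 of the 28 arrays, in 8 groups; colour is the log2 value minus the mean of that gene over all arrays, cut at -1 and 1. DKO replicates 1 and 3 stand out in the sterol rows, Hmgcs1 and Stard4 are higher and Fasn and Scap lower to the right of the thick line, where the NAC arrays begin.

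In untreated lungs without both GTPases, 5 sterol enzymes (Fdft1, Sqle, Hsd17b7, Msmo1 and Pmvk) and 2 fatty acid enzymes (Elovl5 and Acss2) were called higher against at least 1 of the other genotypes, and no gene of the set was called lower. Against Control, 3 of 32 genes rose: Fdft1 by 0.70 ± 0.19 (1.62-fold), Elovl5 by 0.49 ± 0.11 (1.41-fold) and Acss2 by 0.45 ± 0.12 (1.37-fold). Among all genes 2.48% were called higher and 1.35% lower in that comparison. Against HRas-KO 6 of 32 genes rose, where 3.3% of all genes were called higher and 2.32% lower. Against NRas-KO 5 of 32 rose, where 3.2% of all genes were called higher and 1.75% lower. The shares of the set were above those of all genes in the upward direction, with no test made of that difference. The 3 comparisons share the DKO arrays, so each is given by its own values.

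Fdft1, squalene synthase, which commits farnesyl diphosphate to sterols, was the sterol enzyme called in all 3. Its untreated values were 7.72, 7.72 and 7.47 in Control, 7.42, 7.50 and 7.75 in HRas-KO, 7.45, 7.55 and 7.88 in NRas-KO against 8.83, 8.19, 8.33, 8.37 and 7.96 in DKO. All 5 DKO lungs lay above all 9 other untreated lungs. The differences were 0.70 ± 0.19 from Control (adjusted p = 0.0415), 0.77 ± 0.19 from HRas-KO (adjusted p = 0.0171) and 0.71 ± 0.19 from NRas-KO (adjusted p = 0.031). Against Control the call was lost without Control replicate 1, 2 or 3 or DKO replicate 1, 3 or 4 (adjusted p 0.0603 to 0.157), and with the animal code start as a random block (0.70, limma adjusted p = 0.0637) or array medians centred (0.71, limma adjusted p = 0.0567). Against HRas-KO it was lost without HRas-KO replicate 1 or 2 (0.0833 to 0.0941) and against NRas-KO without NRas-KO replicate 1 or 2 or DKO replicate 1 (0.0841 to 0.144).

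Sqle, squalene epoxidase, which makes the next intermediate and is rate-limiting in the later pathway, read 6.62, 6.62 and 6.60 in Control, 6.37, 6.47 and 6.72 in HRas-KO, 6.40, 6.46 and 6.71 in NRas-KO against 7.76, 6.84, 7.90, 7.06 and 6.84 in DKO. The DKO lungs again lay above every other untreated lung, with replicates 1 and 3 far above the other three. Sqle rose by 0.76 ± 0.20 against HRas-KO (adjusted p = 0.0206) and by 0.75 ± 0.20 against NRas-KO (adjusted p = 0.0236). Against Control the difference was 0.67 ± 0.20 and missed the threshold (adjusted p = 0.0533). The HRas-KO call was lost without HRas-KO replicate 1 or 2 or DKO replicate 1 or 3 (0.0521 to 0.111), and the NRas-KO call without NRas-KO replicate 1 or 2 or DKO replicate 1 or 3 (0.0569 to 0.109).

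Hsd17b7, the keto-sterol reductase whose promoter is shown above, was a dim gene with untreated values of 5.47, 5.71 and 5.50 in Control, 5.56, 5.30 and 5.67 in HRas-KO, 5.46, 5.31 and 5.36 in NRas-KO against 6.80, 5.69, 6.26, 5.88 and 6.11 in DKO. No DKO lung overlapped the single knockouts, while DKO replicate 2 lay just below the highest Control lung. It rose by 0.64 ± 0.17 against HRas-KO (adjusted p = 0.0265) and by 0.77 ± 0.17 against NRas-KO (adjusted p = 0.00849), against 0.58 ± 0.17 from Control (adjusted p = 0.055). The first call was lost without HRas-KO replicate 1 or 2 or DKO replicate 1 or 3 (0.0526 to 0.177) and the other without NRas-KO replicate 2 (0.0522).

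Msmo1, a methylsterol monooxygenase, read 6.59, 6.33 and 6.63 in Control, 6.25, 6.36 and 6.44 in HRas-KO, 6.49, 6.33 and 6.53 in NRas-KO against 7.69, 6.57, 7.71, 6.85 and 6.75 in DKO. DKO replicates 1 and 3 were well above the rest, and replicate 2 lay within the Control range. The call was made against HRas-KO only, at 0.77 ± 0.23 (adjusted p = 0.047), and was lost without HRas-KO replicate 1, 2 or 3 or DKO replicate 1 or 3 (0.0939 to 0.168). Differences of 0.60 ± 0.23 from Control and 0.66 ± 0.23 from NRas-KO were not called (adjusted p = 0.164 and 0.096).

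Pmvk, phosphomevalonate kinase, belongs to the early pathway and had untreated values of 9.41, 9.93 and 9.87 in Control, 9.86, 9.48 and 9.60 in HRas-KO, 9.62, 8.93 and 8.93 in NRas-KO against 10.30, 9.86, 10.08, 9.25 and 9.82 in DKO. It was called against NRas-KO at 0.71 ± 0.18 (adjusted p = 0.0242), although DKO replicate 4 lay inside the NRas-KO range. The call was lost without NRas-KO replicate 2 or 3 or DKO replicate 1 or 3 (0.0522 to 0.167). Against Control the difference was 0.13 ± 0.18, with all 3 Control lungs inside the DKO range.

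**Figure D2:**
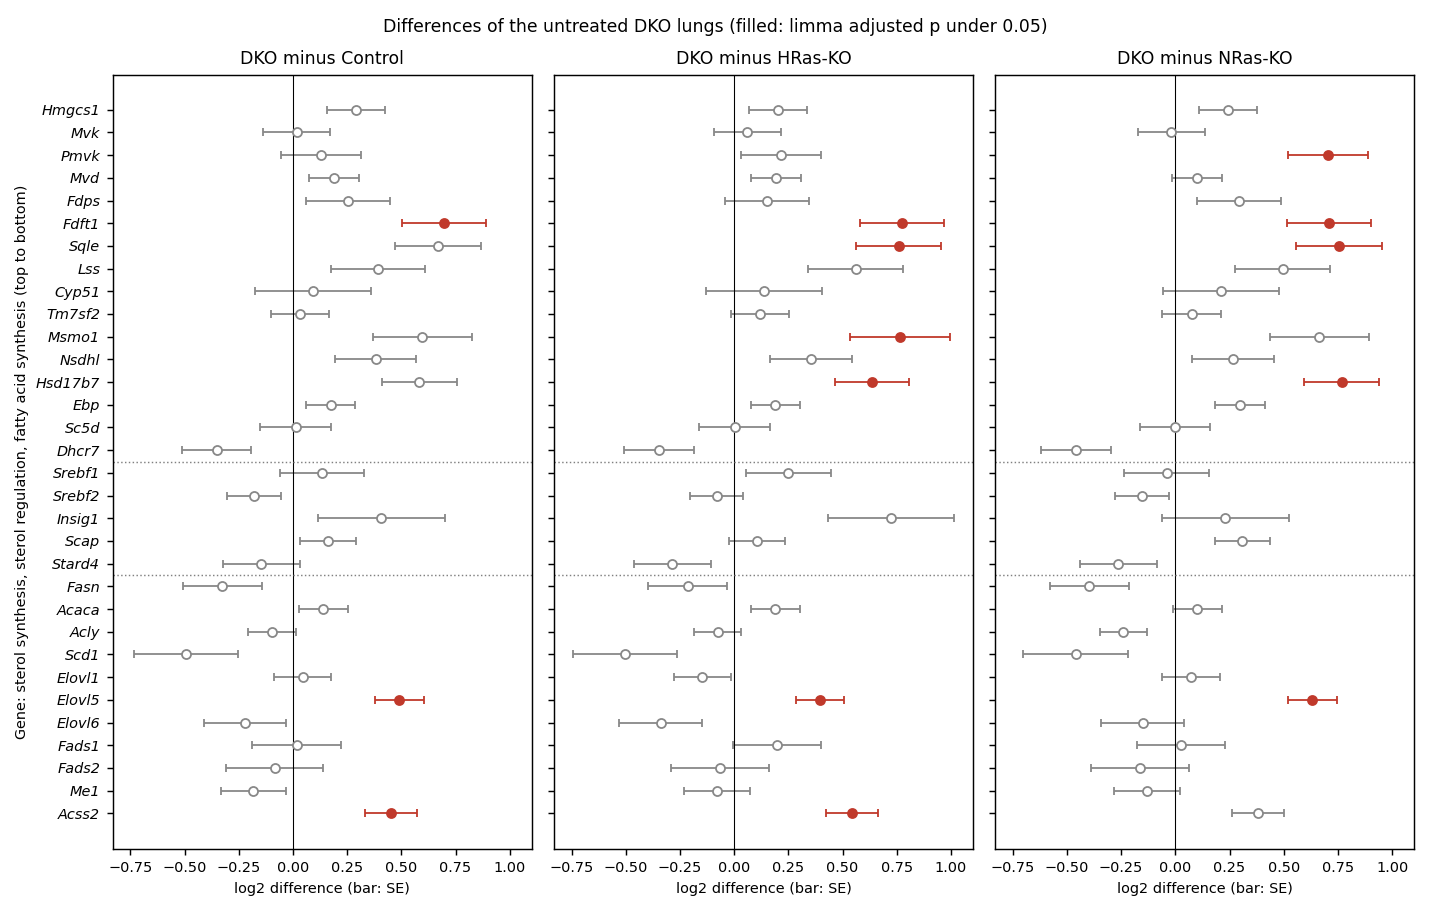
Log2 differences of untreated DKO lungs (n = 5) from Control, HRas-KO and NRas-KO (n = 3 each) for all 32 genes, with SE bars; filled red points have a limma adjusted p under 0.05. All called points lie to the right of 0, and Scd1 and Dhcr7 are the estimates farthest to the left.

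Of the fatty acid arm, Elovl5 and Acss2 were called. Elovl5, an elongase of polyunsaturated fatty acids, read 10.55, 10.80 and 10.63 in Control, 10.89, 10.74 and 10.63 in HRas-KO, 10.60, 10.43 and 10.52 in NRas-KO against 11.37, 10.93, 10.99, 11.14 and 11.32 in DKO. Every DKO lung was above every other untreated lung. It rose by 0.49 ± 0.11 against Control (adjusted p = 0.013), 0.40 ± 0.11 against HRas-KO (adjusted p = 0.0345) and 0.63 ± 0.11 against NRas-KO (adjusted p = 0.00136). The call against NRas-KO held without any 1 array. The call against Control was lost without Control replicate 1 (0.093), and that against HRas-KO without HRas-KO replicate 2 or 3 or DKO replicate 1 or 5 (0.0828 to 0.171).

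Acss2, which makes acetyl-CoA from acetate for both arms, read 7.19, 7.12 and 7.02 in Control, 6.82, 7.02 and 7.21 in HRas-KO, 7.11, 7.17 and 7.26 in NRas-KO against 7.48, 7.75, 7.30, 7.77 and 7.50 in DKO. DKO lungs were again above all other untreated lungs, and here replicates 2 and 4 were the highest. The rise was 0.45 ± 0.12 against Control (adjusted p = 0.0329) and 0.55 ± 0.12 against HRas-KO (adjusted p = 0.00689). Against NRas-KO it was 0.38 ± 0.12 and missed the threshold (adjusted p = 0.0642). The Control call was lost without Control replicate 1, 2 or 3 or DKO replicate 2 or 4 (0.0671 to 0.122) and the HRas-KO call without HRas-KO replicate 1 (0.0707).

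No other fatty acid enzyme was called in these 3 comparisons. Scd1, the desaturase that makes oleate, had the lowest estimate of the arm in all 3 comparisons, at -0.49 ± 0.24, -0.50 ± 0.24 and -0.46 ± 0.24 from Control, HRas-KO and NRas-KO, and was called in none of them. Fasn, fatty acid synthase, was -0.33 ± 0.18 from Control (adjusted p = 0.419). Acaca, Acly and Me1, which supply malonyl-CoA, acetyl-CoA and NADPH, lay between -0.18 ± 0.15 (Me1) and 0.14 ± 0.11 (Acaca) from Control. The desaturases Fads1 and Fads2 stood at 0.02 ± 0.20 and -0.09 ± 0.22.

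Counts by arm showed the contrast. Of 16 sterol enzymes 15 had an estimate above 0 against Control, with 1 called, a median difference of 0.22 and a range of -0.35 (Dhcr7) to 0.70 (Fdft1). Of 11 fatty acid enzymes 5 were above 0, 2 of them called, with a median of -0.09. The 5 regulators had a median of 0.13 with none called, and all 22180 genes a median of 0.02 with 12165 above 0. Against HRas-KO the medians were 0.20 for sterol and -0.08 for fatty acid enzymes with 4 and 2 called, and 0.01 over all genes. Against NRas-KO they were 0.28 and -0.13 with 4 and 1 called, and 0.01 over all genes. These are descriptions, and no test was made of the arms themselves.

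The sterol difference was uneven among the 5 DKO lungs. The mean of the 16 sterol enzymes, each relative to its own mean over all arrays, was 0.51 and 0.34 on DKO replicates 1 and 3, and 0.00, 0.02 and -0.02 on replicates 2, 4 and 5. The same mean was -0.14, -0.01 and -0.12 in Control, -0.19, -0.23 and 0.04 in HRas-KO and -0.22, -0.25 and 0.02 in NRas-KO. Replicates 2, 4 and 5 thus lay within the range of the other untreated lungs. For the 11 fatty acid enzymes the order was turned: -0.08 and -0.19 on replicates 1 and 3, against 0.17, 0.22 and 0.02 on replicates 2, 4 and 5. Sterol minus fatty acid was 0.58 and 0.53 on replicates 1 and 3 and -0.17, -0.21 and -0.04 on the other three, where the 9 other untreated lungs lay between -0.24 and -0.06.

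**Figure D3:**
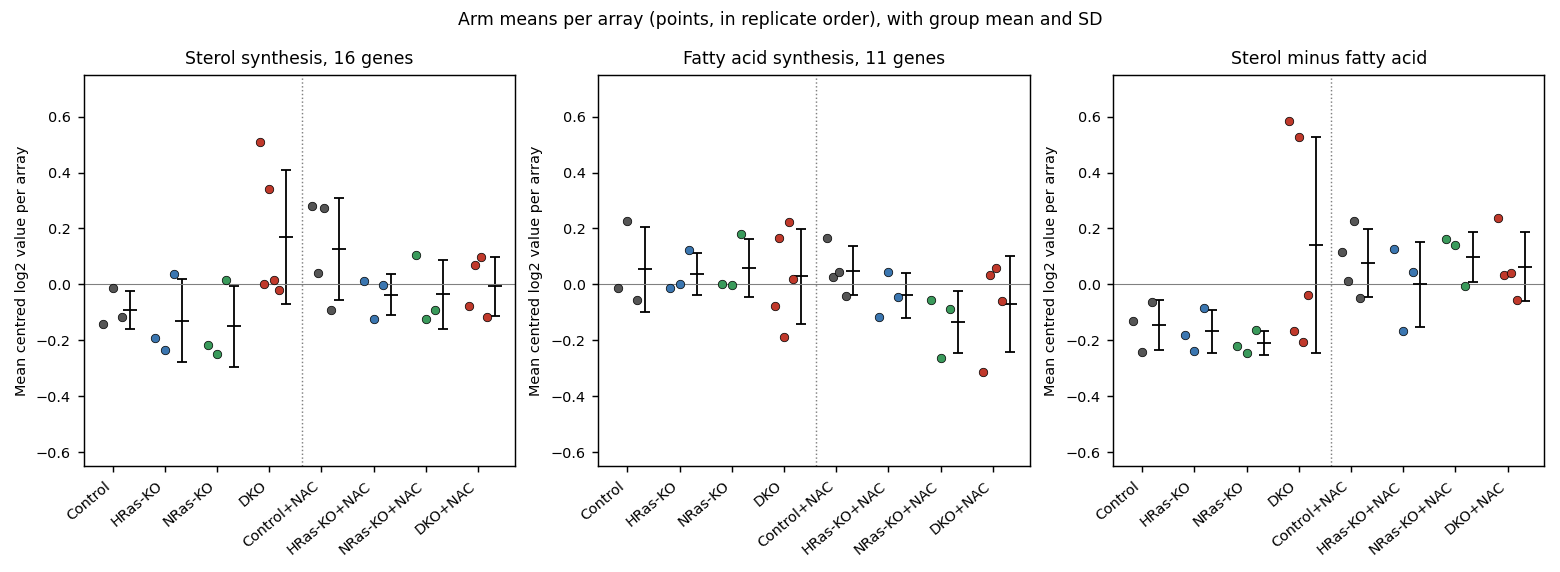
Each point is 1 array, and its height the mean centred log2 value of the 16 sterol enzymes (left), the 11 fatty acid enzymes (middle) or their difference (right); bars give group mean and SD, and the dotted line separates untreated from NAC groups. DKO replicates 1 and 3 reach 0.58 and 0.53 on the right, while the other untreated arrays lie at or below -0.04.

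DKO replicates 1 and 3 are also the 2 DKO lungs with high Xist (10.36 and 9.92, against 3.95 to 4.33), and were split from the others by that value. On both of them 8 of 16 sterol enzymes and 3 of 5 regulators were above all 3 low-Xist DKO lungs, and none was below. Of 11 fatty acid enzymes 6 were below on both and none above. Over all 22180 genes 15.6% were above on both and 15.4% below. The same 2 lungs already stood apart in the arm means, so these counts describe that split again and are no separate evidence. Cyp51, lanosterol demethylase, shows the split most plainly, at 7.12, 5.98, 7.30, 5.80 and 6.23 on DKO replicates 1 to 5. Fdps, farnesyl diphosphate synthase, read 7.14, 6.53, 7.30, 6.48 and 6.18, and Scd1, in the other direction, 10.60, 11.52, 10.04, 11.52 and 11.42. Me1, malic enzyme, read 7.62, 8.36, 7.83, 8.65 and 8.40.

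Sterol means of the other groups are given by Xist as well. Untreated, the high-Xist arrays read -0.12 in Control, -0.19 and -0.23 in HRas-KO and -0.22 and -0.25 in NRas-KO, against -0.14 and -0.01, 0.04, and 0.02 on the low-Xist arrays of those groups. With NAC, high-Xist arrays read 0.28 and -0.09 in Control+NAC and -0.12 in NRas-KO+NAC, against 0.04 and 0.27, and 0.11 and -0.09, on the low-Xist arrays. Other values moved with replicates 1 and 3 too. The mean of 12 type 2 cell markers was -0.28 and -0.24 on them, -0.04, 0.05 and -0.09 on DKO replicates 2, 4 and 5, and 0.06 to 0.28 over the other untreated lungs. The mean of 9 macrophage markers was -0.19 and -0.35, against 0.12 to 0.16 on the other DKO lungs. That of 9 skeletal muscle markers was 1.55 and 0.50, against -0.13, -0.24 and 0.93. The part of each in the sterol values was not tested. Leaving both lungs out, a choice made after seeing the data, left 2 called genes against Control (Elovl5 0.47 and Acss2 0.56), 1 against HRas-KO (Acss2 0.66) and 2 against NRas-KO (Elovl5 0.61 among them). Every sterol enzyme call made with all arrays in these 3 comparisons was then lost. Fdft1 stood at 0.53 from Control (limma adjusted p = 0.18) and Sqle, not called there before either, at 0.30 (limma adjusted p = 0.37). With the type 2 marker mean as a covariate limma called 0 genes against any of the 3 groups. On every DKO lung that mean was below those of all other untreated lungs. The fit therefore cannot tell it apart from the DKO genotype, and a lost call cannot be assigned to either. Fdft1 was 0.61, 0.67 and 0.63 from Control, HRas-KO and NRas-KO, and Elovl5 0.43, 0.31 and 0.57. Acss2 was 0.54 and 0.66 from Control and HRas-KO. Sqle was 0.31, 0.29 and 0.39 from the 3 groups, Hsd17b7 0.28, 0.24 and 0.46, Msmo1 0.28, 0.36 and 0.35, and Pmvk 0.30 from NRas-KO.

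The counts also moved with single arrays of the small groups. Against Control they fell from 3 to 0 without Control replicate 1 and to 1 without Control replicate 2 or 3. Against HRas-KO they fell from 6 to 1 without HRas-KO replicate 1 or 2, to 2 without DKO replicate 1 and to 3 without DKO replicate 3. Against NRas-KO they fell from 5 to 1 without NRas-KO replicate 2, to 3 without NRas-KO replicate 1 and to 2 without DKO replicate 1.

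Other settings ended some of these calls. In fits of only the arrays compared, the one call kept was that of Elovl5 against NRas-KO, and the adjusted p of the others was 0.051 to 0.17. With the code start as a random block Msmo1 against HRas-KO (0.74, limma adjusted p = 0.0724) and Pmvk against NRas-KO (0.66, limma adjusted p = 0.0596) were lost. With 5 arrays left out for their high skeletal muscle markers, a choice made after seeing the data, the one call kept was that of Acss2 against HRas-KO. Differences from Control were then 0.56 for Fdft1, 0.36 for Elovl5 and 0.61 for Acss2. Hsd17b7 was 0.27 from HRas-KO and 0.37 from NRas-KO, and Pmvk 0.28 from NRas-KO.

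Loss of 1 GTPase alone called nothing. Against Control 0 of 32 genes were called in HRas-KO and 0 in NRas-KO, as among all genes, where 0% were called in either (190 and 231 genes had an unadjusted p under 0.05). Even the targeted Nras, at 8.24 ± 0.14 in Control and 7.69 ± 0.10 in NRas-KO (n = 3 each), was not called. A count of 0 here therefore does not show that nothing differed. In the set 0 genes for HRas-KO and 1 for NRas-KO (Pmvk, -0.58 ± 0.21) had an unadjusted p under 0.05. Median differences of the sterol enzymes were -0.04 in both. The DKO difference beyond the sum of both single ones was called for 0 of 32 genes and 0.225% of all genes in limma. The largest such estimates were 0.85 ± 0.30 for Sqle, 0.83 ± 0.34 for Msmo1 and 0.82 ± 0.26 for Hsd17b7. In the set 7 of 32 genes had an unadjusted p under 0.05, and over all 22180 genes 2123 had.

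NAC went with higher Hmgcs1 and lower Fasn in all 4 genotypes. These are the entry enzyme of the sterol arm and the synthase of the fatty acid arm. Hmgcs1 was called higher and Fasn lower in each of the 4 comparisons. Over all genes 245 (1.10%) were called higher in all 4 and 301 (1.36%) lower in all 4.

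Hmgcs1, the cytosolic synthase that makes the precursor of mevalonate, had untreated values of 8.58, 8.29 and 8.44 in Control, 8.54, 8.55 and 8.50 in HRas-KO, 8.49, 8.31 and 8.66 in NRas-KO against 8.99, 8.47, 8.95, 8.66 and 8.58 in DKO. With NAC they were 9.74, 9.41, 9.48 and 9.08 in Control+NAC, 9.0, 9.02 and 9.07 in HRas-KO+NAC, 9.36, 9.06 and 8.93 in NRas-KO+NAC and 9.30, 9.17, 9.18 and 8.92 in DKO+NAC. Groups with and without NAC did not overlap in Control, HRas-KO and NRas-KO, and in DKO the lowest NAC lung (8.92) lay below untreated replicates 1 and 3. It rose by 0.99 ± 0.14 in Control (1.98-fold, adjusted p = 6.35e-05), 0.50 ± 0.15 in HRas-KO (adjusted p = 0.0297), 0.63 ± 0.15 in NRas-KO (adjusted p = 0.0112) and, in DKO lungs, 0.41 ± 0.12 (adjusted p = 0.0271). The Control call held without any 1 array and under every alternative run for it. In HRas-KO the call was lost without any 1 of the 6 arrays (adjusted p 0.0614 to 0.087). In NRas-KO it was lost without NRas-KO replicate 2 or NRas-KO+NAC replicate 1 (0.0717 to 0.0727), and in DKO without DKO replicate 2, 4 or 5 or DKO+NAC replicate 1, 2 or 3 (0.0548 to 0.095).

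Fasn read 10.35, 10.89 and 10.48 in Control, 10.25, 10.33 and 10.80 in HRas-KO, 10.44, 10.78 and 10.72 in NRas-KO against 10.09, 10.43, 10.16, 10.56 and 10.00 in DKO without NAC. With NAC it read 10.20, 10.01, 9.76 and 9.92 in Control+NAC, 9.46, 9.99 and 9.48 in HRas-KO+NAC, 9.32, 9.30 and 10.00 in NRas-KO+NAC and 9.23, 9.83, 9.84 and 9.63 in DKO+NAC. No NAC lung overlapped the untreated lungs of its genotype. It fell by 0.60 ± 0.19 in Control (adjusted p = 0.035), by 0.82 ± 0.20 in HRas-KO (adjusted p = 0.00869), by 1.10 ± 0.20 in NRas-KO (adjusted p = 0.00166) and, among DKO lungs, by 0.61 ± 0.17 (adjusted p = 0.0157). The NRas-KO call held without any 1 array. The Control call was lost without Control replicate 2 or 3 or Control+NAC replicate 2, 3 or 4 (0.0515 to 0.223), with the code start as a random block (-0.61, 0.0509) and with the type 2 marker mean as a covariate (-0.57, 0.109), the HRas-KO call without HRas-KO replicate 3 or HRas-KO+NAC replicate 1 (0.0563 to 0.0654) and the DKO call without DKO+NAC replicate 1 (0.0838).

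**Figure D4:**
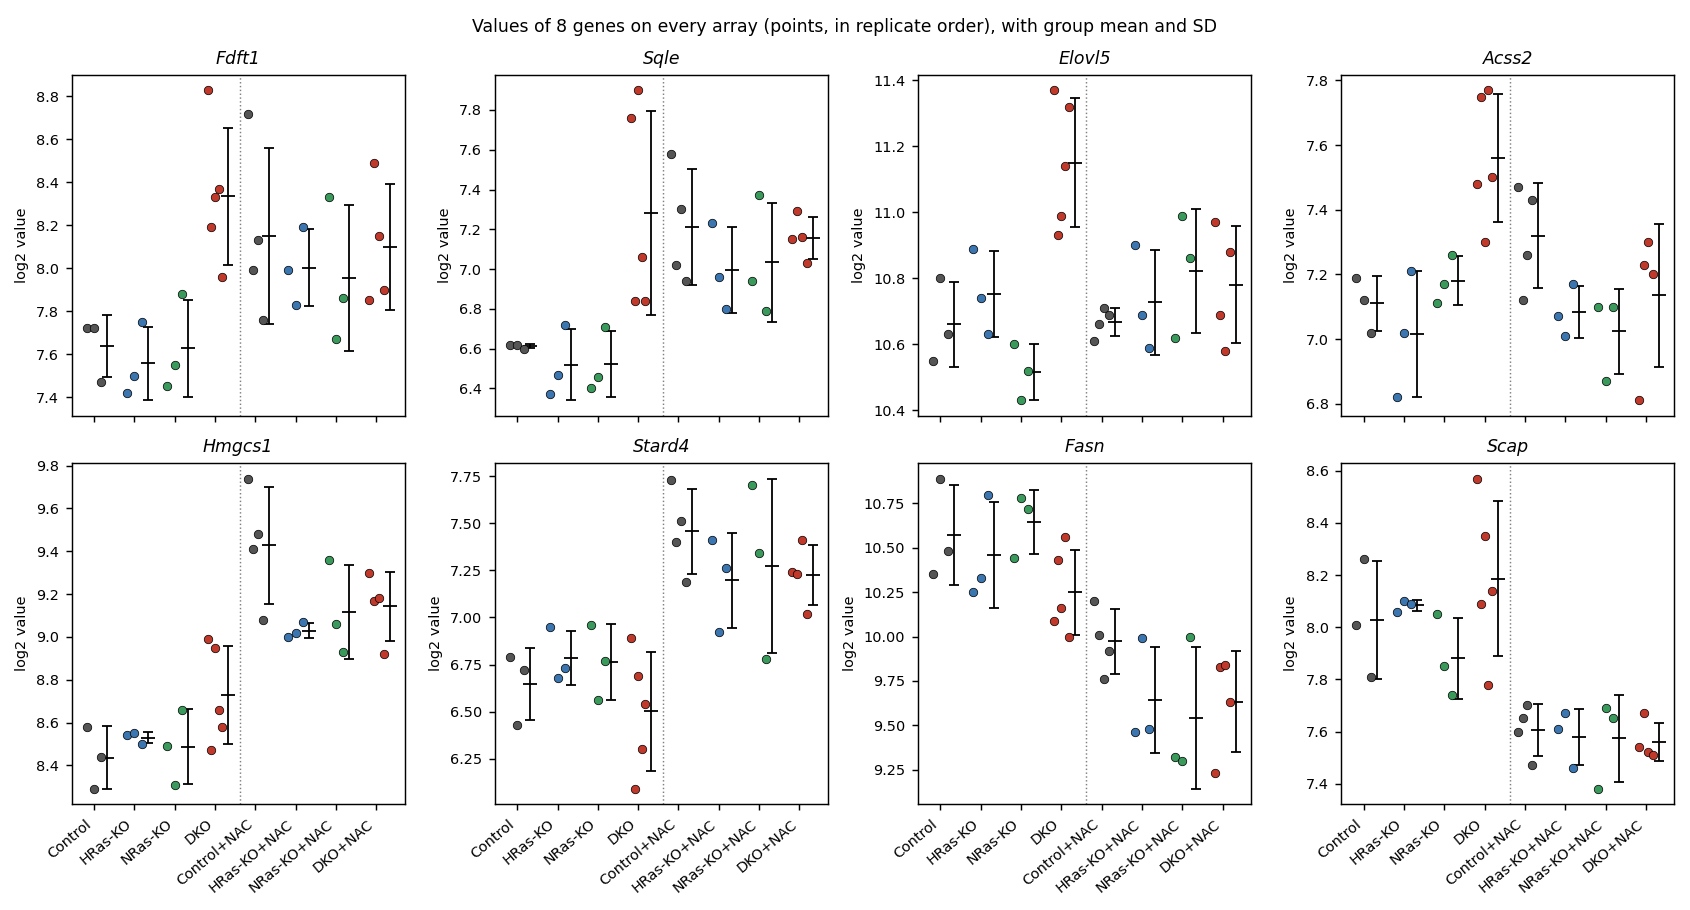
Log2 values of 8 genes on all 28 arrays by group, with group mean and SD; the dotted line separates untreated from NAC groups. Fdft1, Sqle, Elovl5 and Acss2 (top) have their highest group mean in untreated DKO lungs, while Hmgcs1 and Stard4 shift up and Fasn and Scap down across the line.

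In Control, NAC called 2 genes higher and 2 lower of 32, where 7.86% of all genes were called higher and 5.68% lower. In HRas-KO it was 2 and 3 of 32, against 6.73% and 5.1% of all genes. In NRas-KO it was 1 and 3, against 2.86% and 3.56%, and in DKO 3 and 7, against 5.74% and 6.46%. In Control the shares of the set were near those of all genes in both directions. They were above them for genes called lower in HRas-KO, NRas-KO and DKO and for genes called higher in DKO, with no test made of that difference.

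Among the sterol regulators, Stard4, a carrier of cholesterol between membranes, read 6.79, 6.43 and 6.72 in Control, 6.95, 6.68 and 6.73 in HRas-KO, 6.96, 6.56 and 6.77 in NRas-KO against 6.89, 6.09, 6.69, 6.30 and 6.54 in DKO without NAC. With NAC its values were 7.73, 7.40, 7.51 and 7.19 in Control+NAC, 7.41, 6.92 and 7.26 in HRas-KO+NAC, 7.70, 7.34 and 6.78 in NRas-KO+NAC and 7.24, 7.23, 7.41 and 7.02 in DKO+NAC. The groups did not overlap in Control and DKO, where it rose by 0.81 ± 0.19 (adjusted p = 0.00434) and 0.72 ± 0.16 (adjusted p = 0.00401). Both calls held without any 1 array and under the other alternatives run for them. In HRas-KO and NRas-KO the lowest NAC lung lay inside the untreated range, and differences of 0.41 ± 0.20 and 0.51 ± 0.20 were not called (adjusted p = 0.196 and 0.134).

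Insig1, which retains SCAP in the endoplasmic reticulum and is itself a target of SREBP, read 8.66, 9.43 and 9.12 in Control, 8.42, 8.37 and 9.47 in HRas-KO, 8.71, 9.32 and 9.71 in NRas-KO against 9.95, 9.36, 9.68, 9.46 and 8.92 in DKO untreated. With NAC it read 10.23, 9.71, 9.97 and 9.93 in Control+NAC, 9.85, 9.71 and 9.91 in HRas-KO+NAC, 9.88, 8.36 and 9.55 in NRas-KO+NAC and 8.92, 9.61, 9.72 and 9.54 in DKO+NAC. It rose in HRas-KO by 1.07 ± 0.33 (2.10-fold, adjusted p = 0.032), a call lost without HRas-KO replicate 1 or 2 or HRas-KO+NAC replicate 1, 2 or 3 (0.0547 to 0.154). With the type 2 marker mean as a covariate the Insig1 difference in HRas-KO was 0.40 (limma adjusted p = 0.63), and with Xist as a covariate 0.93 (limma adjusted p = 0.0803). Xist was high on 2 of 3 HRas-KO and 0 of 3 HRas-KO+NAC arrays. In Control the difference was 0.89 ± 0.31 (adjusted p = 0.0524), with no overlap between the groups. For NRas-KO and DKO it was 0.02 ± 0.33 and -0.03 ± 0.27.

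Scap, the escort of both SREBPs, read 8.01, 8.26 and 7.81 in Control, 8.06, 8.10 and 8.09 in HRas-KO, 8.05, 7.85 and 7.74 in NRas-KO against 8.57, 8.09, 8.35, 7.78 and 8.14 in DKO untreated and 7.60, 7.65, 7.70 and 7.47 in Control+NAC, 7.61, 7.67 and 7.46 in HRas-KO+NAC, 7.38, 7.69 and 7.65 in NRas-KO+NAC and 7.54, 7.67, 7.52 and 7.51 in DKO+NAC. The NAC lungs were below all untreated lungs of the same genotype in all 4. It fell by 0.42 ± 0.13 in Control (adjusted p = 0.0357), by 0.50 ± 0.14 in HRas-KO (adjusted p = 0.0216) and by 0.63 ± 0.12 in DKO (adjusted p = 8.26e-04), and was -0.30 ± 0.14 in NRas-KO (adjusted p = 0.233). The DKO call held without any 1 array. The Control call was lost without Control replicate 1 or 2 or Control+NAC replicate 1 or 4 (0.0656 to 0.23) and the HRas-KO call without HRas-KO replicate 1, 2 or 3 or HRas-KO+NAC replicate 1 or 3 (0.0515 to 0.0953). A second, dimmer probe set of Scap did not show a fall: it read 5.37 ± 0.04 and 5.42 ± 0.07 in Control without and with NAC (n = 3 and 4), and 5.26 ± 0.17 and 5.31 ± 0.11 in DKO (n = 5 and 4). With the mean of both probe sets the Scap differences were -0.18, -0.19 and -0.29 in Control, HRas-KO and DKO, with limma adjusted p = 0.281, 0.316 and 0.0437.

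Srebf1, the gene of the SREBP1 factor that drives fatty acid enzymes most, read 7.66, 8.09 and 7.80 in Control, 7.73, 7.44 and 8.03 in HRas-KO, 7.68, 8.19 and 8.20 in NRas-KO against 8.07, 8.14, 7.85, 8.25 and 7.60 in DKO untreated. With NAC it read 7.69, 7.48, 7.43 and 7.52 in Control+NAC, 7.43, 7.62 and 7.44 in HRas-KO+NAC, 7.21, 6.80 and 7.70 in NRas-KO+NAC and 6.79, 7.65, 7.56 and 7.63 in DKO+NAC. It fell by 0.79 ± 0.22 in NRas-KO (adjusted p = 0.0288) and by 0.58 ± 0.18 in DKO (adjusted p = 0.0332), with NRas-KO+NAC replicate 3 just above the lowest untreated NRas-KO lung and DKO replicate 5 below a pair of DKO+NAC lungs. The lowest values, 6.80 and 6.79, were those of NRas-KO+NAC replicate 2 and DKO+NAC replicate 1, which share the start of their animal code. The NRas-KO call was lost without NRas-KO replicate 2 or 3 or NRas-KO+NAC replicate 1 or 2 (0.0759 to 0.187) and the DKO call without DKO replicate 1, 2 or 4 or DKO+NAC replicate 1 (0.0677 to 0.182).

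Srebf2, the gene of the factor that drives sterol enzymes most, read 9.17, 9.38 and 9.01 in Control, 8.97, 8.97 and 9.33 in HRas-KO, 9.14, 9.07 and 9.28 in NRas-KO against 8.96, 8.99, 9.02, 9.18 and 8.89 in DKO untreated and 9.06, 8.75, 8.89 and 8.63 in Control+NAC, 8.57, 8.89 and 8.57 in HRas-KO+NAC, 8.75, 8.42 and 8.88 in NRas-KO+NAC and 8.58, 8.93, 8.83 and 8.88 in DKO+NAC. Its estimate was below 0 in all 4 genotypes, and it was called in NRas-KO, where it fell by 0.48 ± 0.14 (adjusted p = 0.036) with no overlap. That call was lost without NRas-KO replicate 1, 2 or 3 or NRas-KO+NAC replicate 1 or 2 (0.0624 to 0.211).

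The sterol enzymes Pmvk and Ebp were called lower with NAC in 2 genotypes and 1. Pmvk read 9.40, 9.46, 9.61 and 9.16 in Control+NAC, 9.17, 8.72 and 8.74 in HRas-KO+NAC, 9.33, 9.59 and 9.21 in NRas-KO+NAC and 9.18, 9.23, 9.18 and 9.38 in DKO+NAC, beside the untreated values above. It fell by 0.77 ± 0.21 in HRas-KO (adjusted p = 0.0145) and by 0.62 ± 0.17 in DKO (adjusted p = 0.0155), where DKO+NAC replicate 4 (9.38) lay above DKO replicate 4 (9.25). Its difference was -0.33 ± 0.19 in Control and, upward, 0.22 ± 0.21 in NRas-KO, neither called. With the type 2 marker mean as a covariate Pmvk was -1.22 in HRas-KO. The HRas-KO call was lost without HRas-KO replicate 1 or HRas-KO+NAC replicate 2 or 3 (0.059 to 0.0778) and the DKO call without DKO replicate 1 (0.0548). Ebp, a sterol isomerase, read 7.13, 7.04 and 6.73 in Control, 6.89, 6.98 and 6.99 in HRas-KO, 6.95, 6.63 and 6.95 in NRas-KO against 7.30, 7.11, 7.07, 7.17 and 7.07 in DKO untreated and 6.98, 6.65, 7.02 and 6.93 in Control+NAC, 6.65, 6.72 and 6.66 in HRas-KO+NAC, 6.92, 6.59 and 6.81 in NRas-KO+NAC and 6.86, 6.83, 6.87 and 6.43 in DKO+NAC. It fell in DKO by 0.39 ± 0.11 (adjusted p = 0.0135) with no overlap, and the call was lost without DKO+NAC replicate 4 (0.0707).

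The sterol enzymes called in untreated DKO lungs, other than Pmvk, were not called with NAC in any genotype in the main fit. The untreated DKO arrays enter both kinds of comparison. Fdft1 read 8.72, 7.99, 8.13 and 7.76 in Control+NAC, 7.99, 7.83 and 8.19 in HRas-KO+NAC, 8.33, 7.67 and 7.86 in NRas-KO+NAC and 7.85, 8.49, 8.15 and 7.90 in DKO+NAC. Its NAC difference was 0.51 ± 0.20 in Control and -0.24 ± 0.18 in DKO, neither called. Sqle read 7.58, 7.02, 7.30 and 6.94 in Control+NAC, 7.23, 6.96 and 6.80 in HRas-KO+NAC, 6.94, 7.37 and 6.79 in NRas-KO+NAC and 7.15, 7.29, 7.16 and 7.03 in DKO+NAC, and differed by 0.60 ± 0.21 in Control and -0.13 ± 0.18 in DKO, not called. Msmo1 read 7.31, 6.93, 7.56 and 6.51 in Control+NAC, 6.69, 6.42 and 6.94 in HRas-KO+NAC, 7.17, 6.61 and 6.74 in NRas-KO+NAC and 6.94, 7.09, 7.04 and 6.57 in DKO+NAC, with 0.56 ± 0.24 in Control and -0.20 ± 0.21 in DKO, not called. Hsd17b7 read 5.74, 5.80, 6.21 and 5.54 in Control+NAC, 6.06, 5.87 and 5.69 in HRas-KO+NAC, 5.65, 6.0 and 5.97 in NRas-KO+NAC and 6.02, 5.84, 5.85 and 5.66 in DKO+NAC, with 0.26 ± 0.18 in Control and -0.30 ± 0.16 in DKO, not called.

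In the fatty acid arm, Elovl6, which elongates palmitate, read 6.38, 6.58 and 5.80 in Control, 6.44, 6.55 and 6.12 in HRas-KO, 6.43, 5.86 and 6.26 in NRas-KO against 5.86, 6.10, 5.68, 6.29 and 6.22 in DKO untreated and 6.97, 6.65, 7.12 and 6.41 in Control+NAC, 6.81, 6.81 and 6.81 in HRas-KO+NAC, 6.99, 6.58 and 6.19 in NRas-KO+NAC and 6.61, 6.74, 6.61 and 7.05 in DKO+NAC. It rose in DKO by 0.72 ± 0.18 (adjusted p = 0.00705), with no overlap, and stayed called without any 1 array. Estimates in the other genotypes lay between 0.40 ± 0.21 (NRas-KO) and 0.53 ± 0.20 (Control). Elovl5 read 10.61, 10.66, 10.71 and 10.69 in Control+NAC, 10.90, 10.69 and 10.59 in HRas-KO+NAC, 10.62, 10.99 and 10.86 in NRas-KO+NAC and 10.97, 10.69, 10.58 and 10.88 in DKO+NAC, and fell in DKO by 0.37 ± 0.10 (adjusted p = 0.0174) with overlap. Acss2 read 7.47, 7.12, 7.26 and 7.43 in Control+NAC, 7.07, 7.01 and 7.17 in HRas-KO+NAC, 7.10, 6.87 and 7.10 in NRas-KO+NAC and 6.81, 7.23, 7.30 and 7.20 in DKO+NAC, and fell in DKO by 0.43 ± 0.11 (adjusted p = 0.0108), with Acss2 of DKO replicate 3 and DKO+NAC replicate 3 both at 7.30. The Elovl5 call was lost without DKO replicate 1 or 5 or DKO+NAC replicate 2 or 3 (0.0516 to 0.083) and the Acss2 call without DKO+NAC replicate 1 (0.0679).

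**Figure D5:**
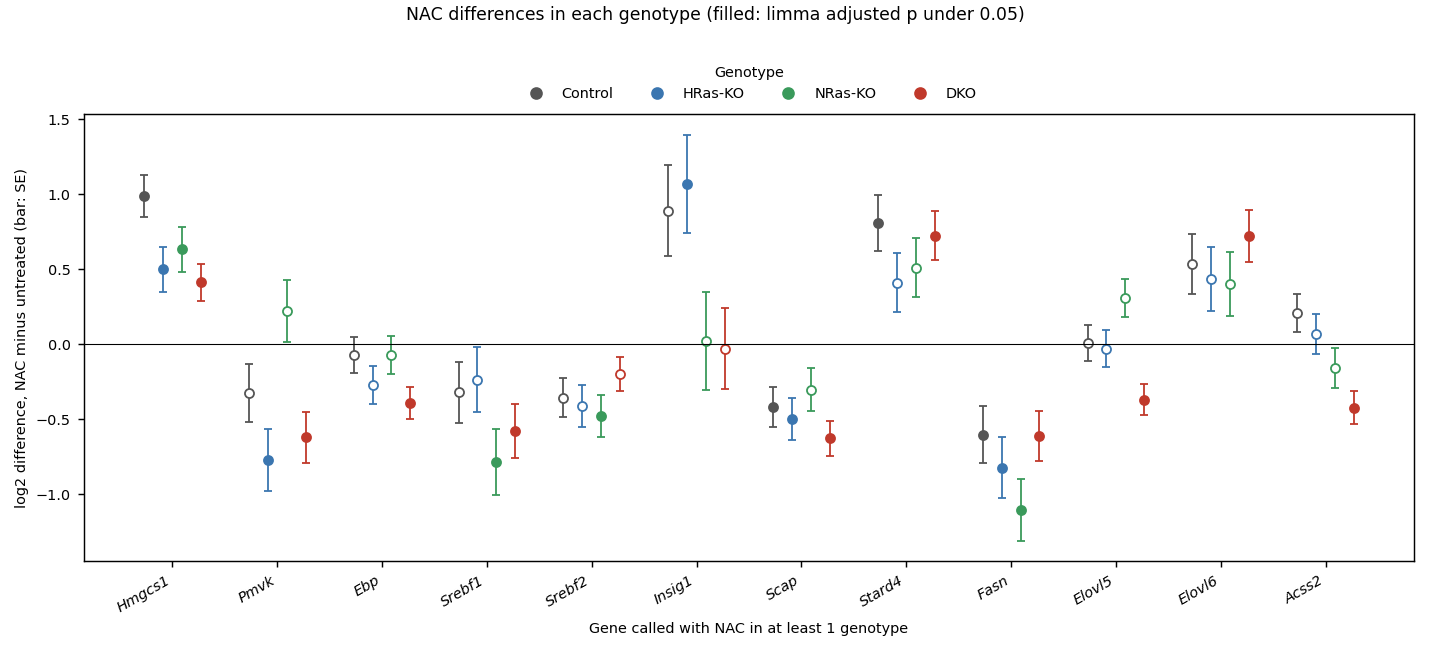
Log2 difference of NAC minus untreated lungs, with SE bars, for the 12 genes called with NAC in at least 1 genotype; colour marks the genotype and filled points a limma adjusted p under 0.05. Hmgcs1 is filled above 0 and Fasn below 0 in all 4 genotypes.

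By arm, the median NAC difference of the sterol enzymes was 0.22 in Control, 0.09 in HRas-KO and 0.07 in NRas-KO, but -0.22 in DKO. That of the fatty acid enzymes was 0.01, 0.01, -0.16 and -0.11, and that of all genes 0.02, 0.02, 0.03 and 0.02. Sterol minus fatty acid per lung was higher with NAC in the groups with some Ras gene left: -0.14 ± 0.09 against 0.08 ± 0.12 in Control, -0.17 ± 0.08 against 0.00 ± 0.15 in HRas-KO and -0.21 ± 0.04 against 0.10 ± 0.09 in NRas-KO. In DKO it was 0.14 ± 0.39 without and 0.06 ± 0.12 with NAC. That untreated mean rests on DKO replicates 1 and 3, at 0.58 and 0.53. Untreated replicates 2, 4 and 5, at -0.17, -0.21 and -0.04, lay near the untreated lungs of the other genotypes. DKO thus differed from the other genotypes here through those replicates 1 and 3. The NAC arrays also differed in other lists. The type 2 marker mean was 0.06 to 0.28 over Control, HRas-KO and NRas-KO lungs without NAC and -0.13 to -0.02 with it, with 4, 4 and 3 of 12 markers called lower. In DKO 2 of the 12 were called higher and 2 lower. Heart muscle genes were called lower for 2, 1, 1 and 4 of 7 in Control, HRas-KO, NRas-KO and DKO, epidermal genes for 4 of 6 in NRas-KO, and skeletal muscle genes for 3 of 9 in DKO. Among all genes 5.68%, 5.1%, 3.56% and 6.46% were called lower with NAC in Control, HRas-KO, NRas-KO and DKO. Those called higher were 7.86%, 6.73%, 2.86% and 5.74%. Of 8 adipocyte, 7 hepatocyte and 9 proliferation genes none was called with NAC. The macrophage gene Cd68 was lower in Control, HRas-KO and DKO (-0.91, -0.91 and -0.67), and the type 1 cell gene Cav1 higher in Control, HRas-KO and NRas-KO (0.31, 0.35 and 0.32), each as 1 of 9 genes of its list. In DKO the ciliated cell gene Tekt1 was lower (-0.62, 1 of 5) and the lipofibroblast gene Tcf21 higher (0.58, 1 of 8). The part of these lists in the result was not tested.

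The NAC counts moved with single arrays. In Control they went from 4 to 2 without Control replicate 2 and to 6 without Control+NAC replicate 4. In HRas-KO they fell from 5 to 1 without HRas-KO replicate 1 or HRas-KO+NAC replicate 1 or 3, to 2 without HRas-KO replicate 2 and to 3 without HRas-KO replicate 3. In NRas-KO they fell from 4 to 1 without NRas-KO replicate 2 or NRas-KO+NAC replicate 1, and to 2 without NRas-KO replicate 3 or NRas-KO+NAC replicate 2. In DKO they fell from 10 to 6 without DKO+NAC replicate 1.

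Other settings ended NAC calls too. Without DKO replicates 1 and 3, DKO+NAC against DKO lost Pmvk (-0.40), Ebp (-0.37), Srebf1 (-0.59) and Elovl6 (0.55). With those 5 muscle-marker arrays left out, Control lost Fasn (-0.65), NRas-KO lost Hmgcs1 (0.55), Srebf1 (-0.70) and Srebf2 (-0.53), and DKO lost Pmvk (-0.31), Ebp (-0.39), Scap (-0.38), Elovl5 (-0.26) and Elovl6 (0.56). With Xist as a covariate DKO lost Hmgcs1 (0.38), Ebp (-0.34), Srebf1 (-0.47), Fasn (-0.51) and Acss2 (-0.35), and HRas-KO lost Scap (-0.45) beside Insig1. With the code start as a random block Scap in Control (-0.43) and Srebf2 in NRas-KO (-0.46) were lost beside Fasn. With the type 2 marker mean as a covariate HRas-KO lost Hmgcs1 (0.49) and Fasn (-0.77), and NRas-KO Srebf2 (-0.46). In Control, HRas-KO and NRas-KO that mean did not overlap between untreated and NAC lungs, so the fit cannot tell it apart from NAC. In fits of only the arrays compared, NRas-KO lost Hmgcs1, Srebf1 and Srebf2, and DKO lost Hmgcs1, Pmvk, Ebp, Srebf1, Elovl5 and Acss2, at the same differences.

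Among the NAC lungs no gene of the set was called between a knockout and Control+NAC. In each of the 3 comparisons 0 of 32 genes and 0% of all genes were called, with 2 genes of the set for DKO+NAC, 2 for HRas-KO+NAC and 5 for NRas-KO+NAC at an unadjusted p under 0.05. Over all genes 2116, 1408 and 2321 had such a p. Fdft1 stood at -0.05 ± 0.19 and Sqle at -0.05 ± 0.19 between DKO+NAC and Control+NAC, with Elovl5 at 0.11 ± 0.11 and Acss2 at -0.18 ± 0.12.

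Whether NAC changed the DKO difference was tested as the DKO difference with NAC minus that without. It was called for 0 of 32 genes and for 0.388% of all genes in limma, and 10 genes of the set had an unadjusted p under 0.05, 7 of them sterol enzymes. Over all 22180 genes 2888 had such a p, and no test set the counts against each other. The median was -0.41 over the sterol enzymes, -0.08 over the fatty acid enzymes and -0.01 over all genes. The estimates farthest from 0 were -0.92 ± 0.41 for Insig1, -0.80 ± 0.26 for Nsdhl, a sterol dehydrogenase, -0.76 ± 0.32 for Msmo1, -0.75 ± 0.27 for Fdft1, -0.72 ± 0.27 for Sqle and -0.71 ± 0.30 for Lss, lanosterol synthase. Without DKO replicate 3, and without DKO replicates 1 and 3 together, 1 gene (Acss2, at -0.70 and -0.75) was called. Without both lungs most of the estimates above were nearer 0. Msmo1 was then -0.37, Sqle -0.36, Fdft1 -0.59, Nsdhl -0.73 and Insig1 -0.69, while Lss was -0.80. None of these was called.

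The other 16 genes were called in no comparison of the main fit. They are Mvk, Mvd, Fdps, Lss, Cyp51, Tm7sf2, Nsdhl, Sc5d and Dhcr7 among sterol enzymes, and Acaca, Acly, Scd1, Elovl1, Fads1, Fads2 and Me1 among fatty acid enzymes. Their levels over the 28 arrays follow as lowest to highest value. Mvk and Mvd, a kinase and the decarboxylase of the mevalonate steps, read 5.77 to 6.59 and 6.07 to 6.81, and their differences lay between -0.19 and 0.19 over the 12 comparisons of one group with another. Fdps, which makes farnesyl diphosphate, read 6.18 to 7.30, and Lss, which closes squalene oxide into the first sterol, 6.19 to 7.92. Cyp51, Tm7sf2 and Nsdhl, which demethylate and reduce that sterol, read 5.80 to 7.30, 5.77 to 6.66 and 6.14 to 7.36. The largest NAC estimates among these were 0.50 ± 0.28 for Cyp51 in Control and -0.57 ± 0.20 for Lss in DKO. Sc5d, a desaturase near the end of the pathway, read 6.94 to 8.0, and its DKO estimate was 0.01 ± 0.16 from Control. Dhcr7, which reduces the last intermediate to cholesterol, read 5.28 to 6.32 and was the one sterol enzyme with an estimate below 0 against Control, at -0.35 ± 0.16. Acaca and Acly, the carboxylase and the lyase that feed Fasn, read 7.60 to 8.29 and 8.76 to 9.37. The elongase Elovl1 and the desaturases Fads1, Fads2 and Scd1 read 8.01 to 8.83, 7.64 to 8.78, 7.20 to 8.81 and 10.04 to 11.73, and Me1 read 7.62 to 8.81. Scd1 had the largest uncalled NAC estimate of the fatty acid arm, at -0.68 ± 0.27 in NRas-KO (adjusted p = 0.141).

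Genes around the pathway were taken from lists written by role, and their counts stand beside the shares of all genes called in DKO against Control, 2.48% higher and 1.35% lower. Of 12 genes of sterol uptake, sensing and transport, 2 rose in DKO against Control and none fell: Mylip, an E3 ligase that degrades lipoprotein receptors, by 0.86 ± 0.18, and Lbr, a nuclear envelope protein with sterol reductase activity, by 0.81 ± 0.19. Of 16 phospholipid synthesis genes 2 rose, the acyltransferase Lpcat3 by 0.45 ± 0.09 and the phosphatidate phosphatase Lpin1 by 0.81 ± 0.22. Of 5 genes of the isoprenoid branch and 18 other fatty acid genes none was called in that comparison. In the same lungs 3 of 12 type 2 markers were lower: Etv5, a transcription factor, by 1.18 ± 0.15, Muc1 by 0.62 ± 0.11 and Lamp3 by 0.52 ± 0.15 on the log2 scale. None of 8 adipocyte, 9 macrophage, 9 type 1 cell, 9 skeletal muscle, 7 heart muscle, 7 hepatocyte, 6 epidermal, 9 proliferation or 5 ciliated cell genes was called, and 1 of 8 lipofibroblast genes was lower. Against HRas-KO 3 of 12 sterol handling and 2 of 16 phospholipid genes were higher (3.3% of all genes), and against NRas-KO 2 and 3 (3.2% of all genes), with none lower.

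With NAC the sterol handling list had 3, 3, 1 and 2 of 12 genes called higher in Control, HRas-KO, NRas-KO and DKO, and 1 lower, in DKO. The shares of all genes called higher were 7.86%, 6.73%, 2.86% and 5.74% and those called lower 5.68%, 5.1%, 3.56% and 6.46%. No test set the list counts against these shares. Of 18 other fatty acid genes 3, 1, 1 and 2 were higher and 1, 1, 1 and 0 lower, and of 16 phospholipid genes 1 was lower in each and 2 higher in DKO. Ggps1, which makes geranylgeranyl diphosphate for protein prenylation, was called among 5 isoprenoid genes. It rose in all 4 genotypes, by 0.74 ± 0.13 in Control, 0.71 ± 0.14 in HRas-KO, 0.70 ± 0.14 in NRas-KO, and 0.58 ± 0.12 among DKO lungs. Mbtps2, the protease that makes the last cut in SREBP release, also rose in all 4, by 0.71 ± 0.15, 0.51 ± 0.16, 0.72 ± 0.16 and 0.40 ± 0.13. Lbr rose in Control and HRas-KO by 0.73 ± 0.19 and 0.82 ± 0.21. Tecr, the reductase that ends each elongation cycle, fell by 0.67 ± 0.18 in Control, 0.59 ± 0.19 in HRas-KO and 0.70 ± 0.19 in NRas-KO on the log2 scale, while Hacd3, the dehydratase before it, rose by 0.54 ± 0.12, 0.47 ± 0.13 and 0.47 ± 0.13. In DKO, Mylip and Lpin1 each fell by 0.64 on the log2 scale (SE 0.16 and 0.20).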

How the data were processed

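Whole lungs of newborn mice were measured on 28 arrays, 1 animal each. The authors deposited log2 values, 1 per probe set and array, and per the submitters' processing notes used RMA and affy, with no versions given. RMA subtracts background and equalises array distributions, so a shift shared by most genes would be removed. The median of an array was 5.25 to 5.41. The small number of arrays limits precision. Groups followed each sample's own labels, which place 14 arrays under NAC, while a note common to all samples names 3. HRas-KO+NAC is named so in the source label and not in the title. Hras was not analysed here.

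Of 41345 probe sets, 23521 carried 1 gene symbol, and the brightest per gene gave 22180 genes. Group means were fitted to all arrays with limma 3.58.1 in R 4.3.3 (20 residual degrees of freedom) and p-values adjusted by Benjamini-Hochberg over all genes. The procedure was tested on simulated data. Values on each array are given for genes called in any of 14 comparisons. Of related lists, up to 4 genes with the smallest p in a comparison are named. The genes and lists were chosen with earlier results of these data known, so counts over them are descriptions. Marker lists covered type 2 and type 1 alveolar cells, adipocytes, lipofibroblasts, macrophages, skeletal and heart muscle, hepatocytes, epidermis, proliferation and ciliated cells. Alternatives covered array centring, quantile normalization, the mean of probe sets, a filter on the dimmest 40% of genes, trended and robust moderation, blocks, fewer arrays, the arms without Acly and Acss2, and, added after seeing the data, covariates and the omission of arrays that stood apart.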

Additional observations from a re-analysis of the deposited data

Results flagged for a closer look

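In 3 cases a single array lay far from the others of its group by Dixon's test, among 108 tested (32 genes and 4 arm measures in the 3 groups of 4 or 5 arrays), where chance flags about 1 in 20. Lss, lanosterol synthase, read 6.62 on DKO+NAC replicate 1, against 7.13 to 7.22 on the other 3 arrays of that group. Srebf1, the gene of SREBP1, read 6.79 on the same array, against 7.56 to 7.65. Ebp, the sterol isomerase, read 6.43 on DKO+NAC replicate 4, against 6.83 to 6.87, and that array is the one on which Nras read 8.08. The calls of lower Srebf1 and lower Ebp in DKO+NAC against DKO were each lost without the array concerned (limma adjusted p = 0.182 and 0.0707).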

How the results depend on the processing

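All counts here are of genes of the set called by limma. With the dimmest 40% of genes left out, 5 were called in DKO against Control, where Sqle (0.67) and Hsd17b7 (0.58) were gained. With NAC that filter gained Sqle (0.60) and Insig1 (0.89) in Control and Lss (-0.57) in DKO. With only the arrays compared in the fit the counts were 0 against Control, 0 against HRas-KO and 1 against NRas-KO for DKO, and 7, 9, 1 and 4 for NAC in Control, HRas-KO, NRas-KO and DKO. Quantile normalization again ended Msmo1 and Elovl5 in DKO against HRas-KO and Hmgcs1 with NAC in HRas-KO. Centring array medians ended Fdft1 in DKO against Control and NRas-KO, Msmo1 against HRas-KO and Hmgcs1 with NAC in DKO. Trended and robust moderation ended Msmo1 against HRas-KO. Same-numbered arrays did not deviate together (mean correlation 0.021 over 37 pairs, 13 of them over 0.1), so the numbers do not pair arrays, and with the replicate number as a block the count for NAC in Control was 7. That block also ended the calls of Elovl5 and Acss2 in DKO against Control and of Elovl5 against HRas-KO. With NAC it ended those of Scap in Control, Srebf2 in NRas-KO and Elovl5 in DKO. Arrays of different groups with the same code start did deviate together (mean correlation 0.146 over 28 pairs, 15 of them over 0.1). For pairs with other code starts the mean was -0.035. The main fit treated all arrays as independent, and the 3 HRas-KO+NAC arrays shared 1 start. With the animal code start as a random block (correlation 0.121) the count for NAC in Control was 2, with Scap and Fasn lost, and Fdft1 was lost in DKO against Control. A fixed block on code start could be fitted only for HRas-KO and NRas-KO against Control and for the 3 comparisons among NAC lungs.

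Among alternatives added after seeing the data, leaving out DKO replicates 1 and 3 gave 1 gene against HRas-KO, 2 against NRas-KO and 1 for the NAC change of the DKO difference. Leaving out the 5 arrays highest in skeletal muscle genes gave 0, 1 and 0 for DKO against Control, HRas-KO and NRas-KO, and 2 for NAC in NRas-KO. Calls gained there with NAC were Scd1 (-0.72) in NRas-KO and Sqle (0.59) in Control. With Xist as a covariate DKO+NAC against DKO gave 6. With the type 2 marker mean as a covariate the 3 DKO comparisons gave 0, 0 and 0 and NAC in HRas-KO gave 3. That mean did not overlap between the groups of these comparisons, so the fit cannot tell it apart from them. Against Control, Fdft1 was then 0.61, Elovl5 0.43 and Acss2 0.54, and against HRas-KO Fdft1 was 0.67 and Acss2 0.66, while Sqle stood at 0.31 and 0.29. In that fit 3 uncalled estimates changed sign: Insig1 to -0.04 and Scd1 to 0.19 in DKO against HRas-KO, and Insig1 to -0.22 in the difference beyond the sum. The cause was not tested.

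Leaving out 1 array at a time gave 0 to 4 genes in DKO against Control, 1 to 6 against HRas-KO, 1 to 6 against NRas-KO, and for NAC 2 to 6 (Control), 1 to 4 (HRas-KO), 1 to 5 (NRas-KO), then 6 to 11 (DKO), with 0 to 1 for the NAC change of the DKO difference. Calls that held under all settings run were Hmgcs1 and Stard4 in Control+NAC, Fasn in NRas-KO+NAC and Stard4 in DKO+NAC.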

Other observations

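DKO+NAC replicate 1 and NRas-KO+NAC replicate 2 share the start of their animal code and held the lowest values of their groups for several genes of both arms. Srebf1 read 6.79 and 6.80 on them, and Lss 6.62 and 6.19. The desaturases read 7.64 and 7.66 for Fads1 and 7.20 and 7.51 for Fads2. Insig1 read 8.92 and 8.36. Hmgcs1 did not share this, with 9.30 and 9.06.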
